A study of Mus musculus with 97 samples.

Results

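Colon gene expression after vancomycin given into the peritoneum (IP) was compared with that after phosphate buffered saline (PBS) by the same route. The libraries were chosen by their treatment label, which gave 4 of Vancomycin-IP and 4 of PBS-IP, 8 of the 97 libraries of the study. All came from the whole colon of wild-type C57BL6/J mice aged 8 to 12 weeks. Vancomycin was injected at 2.5 mg in 100 µl of PBS, 2 times a day for 3 days and 1 more time on day 4, and PBS-IP mice received 100 µl of PBS on that schedule. The colon was collected 4 hours after that final injection. The other 89 libraries came from ampicillin, metronidazole, neomycin, vancomycin, a mix of the antibiotics or PBS given by mouth (PO, gavage), IP or into a vein (IV). Whether each replicate was its own mouse is not stated, so the spread behind the p-values may be technical in part.

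Vancomycin is a glycopeptide that blocks cell wall synthesis in Gram-positive bacteria. Given by mouth it stays largely in the gut lumen, whereas injected drug enters the blood. The wall of the colon holds an inner epithelium of absorptive and mucus-secreting cells and an outer muscle coat with enteric neurons, glia and pacemaker cells, so the RNA of a piece of whole colon mixes these layers. Colon cells also carry a circadian clock. In it Clock and Bmal1 drive Per, Cry and Nr1d genes, which feed back on them, and output factors such as Dbp and Tef bind D-box DNA sites that the repressor Nfil3 also binds.

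The values were TPM, a length-scaled share of a fixed total, so sequencing depth is unknown. The 8 libraries held 19332 to 19878 of 20457 genes above 0, and no pair of libraries was identical. The columns of 12 of the 97 libraries stand after the alphabetical run of the table, among them Vancomycin-IP replicates 2, 3 and 4 and PBS-IP replicates 3 and 4. Expression of 5 posterior Hox genes, which mark the distal gut, was low in Vancomycin-IP replicate 2 (mean log2(TPM + 1) of 1.97) and PBS-IP replicate 3 (1.36) and lay between 4.08 and 5.26 in the other 6. PBS-IP replicate 3 also held the largest mitochondrial share of the 8, 25.1% of its TPM against 6.54% to 12.6%. What the counts and the named calls came to without these libraries is given beside them.

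Vancomycin-IP libraries held more smooth muscle RNA and less epithelial RNA than PBS-IP libraries. A smooth muscle score, averaged over log2(TPM + 1) of 18 muscle genes, was 11.20, 11.62, 11.20 and 10.81 in Vancomycin-IP replicates 1 to 4 and 8.59, 9.38, 8.63 and 9.36 in PBS-IP replicates 1 to 4. The groups did not overlap, at 11.2 ± 0.331 (SD, n = 4) against 8.99 ± 0.439 (SD, n = 4). The difference was 2.218 within the main run of columns (1 against 2 libraries) and 2.214 within the end columns (3 against 2). Over all 8 the difference of 2.22 had an exact two-sided permutation p = 0.0286, the smallest that 4 against 4 can give, and p = 0.0571 after adjustment over 4 scores. The epithelial score, from 32 goblet and surface colonocyte genes, was 5.99 ± 0.769 against 7.47 ± 0.141 (SD, n = 4 each), also without overlap (exact permutation p = 0.0286, adjusted 0.0571). The posterior Hox score differed by -0.18 (exact permutation p = 0.771) and the mitochondrial share by -3.62 percentage points (exact permutation p = 0.543, adjusted 0.724).

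**Figure D1:**
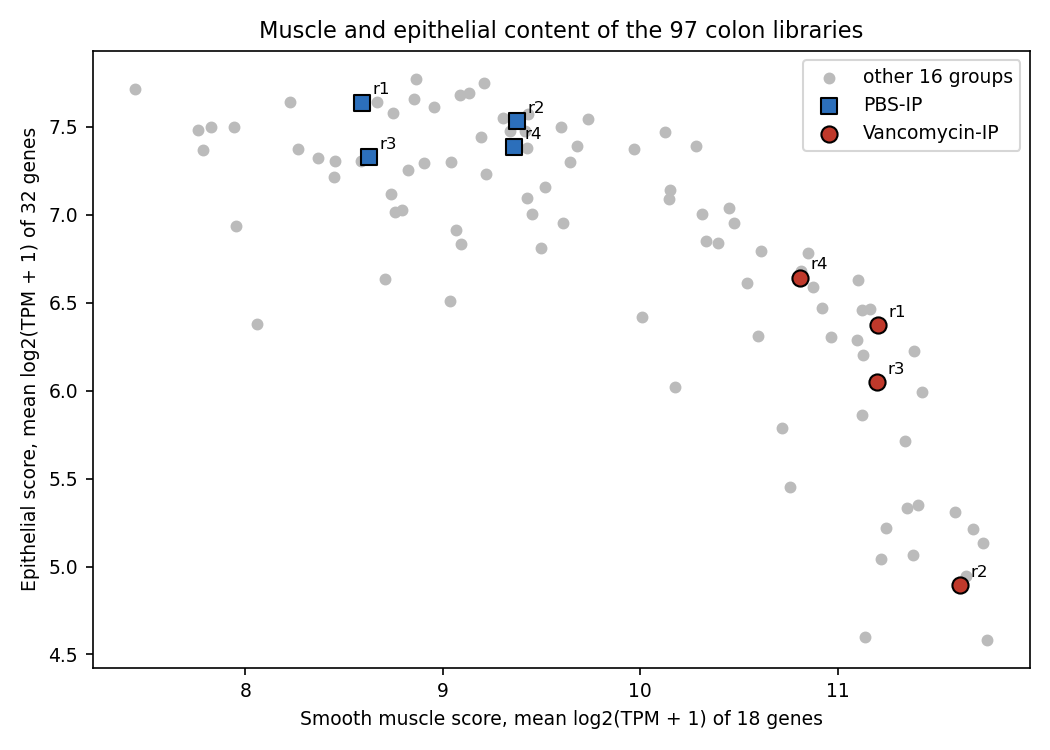
Epithelial score against smooth muscle score, both in mean log2(TPM + 1), with one point for each of the 97 libraries. The 4 Vancomycin-IP libraries (circles, muscle score 10.81 to 11.62) lie to the right of and below the 4 PBS-IP libraries (squares, 8.59 to 9.38), within the range of the other libraries.

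Both groups lay inside the range of the whole study, 7.44 to 11.8. Counted from the highest of the 97 muscle scores, Vancomycin-IP replicates 1 to 4 ranked 15, 5, 16 and 29 and PBS-IP replicates 1 to 4 ranked 84, 59, 83 and 60. By mean score Vancomycin-IP ranked 1 and PBS-IP 17 of the 18 groups. Muscle and epithelial scores were inversely related over the 97 libraries (Pearson r = -0.78), a description only, since TPM of one library compete for a fixed total. In bulk tissue, more cells of a type and more RNA per cell cannot be told apart, and how much of each layer was taken is not given in the labels. The adjustment used below therefore describes how far gene differences went with muscle RNA, and the cause of that was not tested.

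Without adjustment for muscle, 3252 of 17083 tested genes differed (limma, adjusted p under 0.05), of which 2726 were higher and 526 lower after vancomycin. These are 19% of tested genes in either direction, 16% higher and 3.08% lower, and the counts of gene lists below are read against these shares. The median difference of all tested genes was 0.11 on the log2(TPM + 1) scale, on which all differences are given. The count fell to 608, 555 and 1424 without Vancomycin-IP replicates 1, 2 and 3, and to 925, 1925 and 1885 without PBS-IP replicates 1, 2 and 4. Without the pair of libraries low in posterior Hox genes it was 124. Of the 86 named genes called here, 23 kept the call without that pair (Adam19, Amotl2, Ccn2, Cds2, Ciart, Coq10b, Dbp, Dusp3, Dusp8, Filip1l, Gab1, Hspa1a, Hspa1b, Lbh, Nfil3, Nr4a1, Osmr, Per3, Rela, Stat3, Thbs1, Ube2g2 and Zfp36l1), and the others did not. With a term for the end columns 5136 genes were called. With the 12 end libraries left out, 1 Vancomycin-IP and 2 PBS-IP libraries remained and 5 genes were called, and of the 86 named genes Nfil3 alone kept its call. With quantile normalization, which moved the median of all genes to -0.06, 2048 genes were higher and 1574 lower.

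Genes of the muscle coat were higher after vancomycin. Of the 18 smooth muscle genes that make the score above, 16 rose, 0 fell and 2 were not called, with a median difference of 2.17. Acta2, the smooth muscle actin, stood at 7346, 8193, 7354 and 5641 TPM in Vancomycin-IP replicates 1 to 4 and 1030.4, 1626, 882 and 1915 TPM in PBS-IP replicates 1 to 4. Every vancomycin library lay above every PBS library, a difference of 2.45 (SE 0.73, limma adjusted p = 0.0212). Without the low Hox pair it was not called (2.19, limma adjusted p = 0.125). The contractile regulator Cnn1 rose by 2.60, the actin-binding protein Synpo2 by 2.55 and the intermediate filament desmin (Des) by 2.49. The uncalled pair were tropomyosin Tpm2 (1.85, limma adjusted p = 0.0765) and the filament protein Synm (2.16, adjusted p = 0.0663). Acta2, Cnn1, Synpo2 and Des were each not called without one or more of Vancomycin-IP replicates 1, 2 and 3 or of PBS-IP replicates 1, 2, 3 and 4 (limma adjusted p up to 0.115).

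Markers of other cells of the wall were higher in part. Of 8 genes of interstitial cells of Cajal, the pacemakers of gut motility, 4 rose, among them the receptor Kit (1.79) and the gap junction protein Gja1 (2.43), and the chloride channel Ano1 was not called (0.42). Of 15 enteric neuron genes 4 rose, with a median of 1.70, including the nitric oxide synthase Nos1 (2.43) and the receptor Ret (1.96), while the neuropeptide Vip was not called (1.51, limma adjusted p = 0.169). Of 10 glial genes 5 rose, including Gfap (2.27) and the transcription factor Sox10 (1.74). Of 16 fibroblast genes 7 rose, with a median of 1.60, including the collagens Col1a1 (2.27) and Col3a1 (2.05), with fibronectin (Fn1) at 1.92 and not called. Of 7 tested pericyte genes 5 rose, among them the potassium channel subunit Kcnj8 (2.33). Of 12 endothelial genes 2 were higher, a share close to the 16% of all tested genes, one of them the lymphatic marker Lyve1 (1.34), and Pecam1 at 0.48 with overlapping groups. No gene of these lists fell. Kit, Gja1, Nos1, Ret, Gfap, Sox10, Col1a1, Col3a1 and Lyve1 were each not called without one or more of Vancomycin-IP replicates 1, 2 and 3 or of PBS-IP replicates 1, 2, 3 and 4 (limma adjusted p up to 0.158).

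Matricellular and TGF-beta response genes, among them genes of secreted proteins that tune cell adhesion and matrix, were higher too. Of 18, 13 rose and 0 fell, with a median of 2.21. Thbs1, thrombospondin 1, showed the largest rise of the genes eligible to be named. It stood at 959.7, 468, 309 and 454 TPM in Vancomycin-IP replicates 1 to 4 and 35.8, 32.5, 67.5 and 32.4 TPM in PBS-IP replicates 1 to 4. The lowest vancomycin library was several times the highest PBS library, and the difference was 3.61 (SE 0.76, limma adjusted p = 0.00328). Ccn2, a growth factor of connective tissue, rose by 3.07 (limma adjusted p = 0.00703) and the fibronectin receptor subunit Itga5 by 2.58. The TGF-beta inhibitor Skil was not called (0.07). Itga5 was not called without one or more of Vancomycin-IP replicate 1 or of PBS-IP replicate 1 (limma adjusted p up to 0.0582), whereas Thbs1 and Ccn2 were called with each of the 8 libraries left out.

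The IL-6 family list, cytokines and receptors that signal through Stat3, had 5 of 14 tested genes higher and 0 lower. Il6st, the shared receptor chain gp130, stood at 797, 686, 777 and 655 TPM in Vancomycin-IP replicates 1 to 4. In PBS-IP replicates 1 to 4 it stood at 66.3, 157, 41.5 and 96.9 TPM. The vancomycin libraries lay close together, all far above PBS, with a difference of 3.16 (SE 0.79, limma adjusted p = 0.00965). Without the low Hox pair it was not called (2.87, limma adjusted p = 0.0848). The oncostatin M receptor Osmr rose by 1.47 (adjusted p = 0.00974), the ciliary neurotrophic factor receptor Cntfr by 1.75 and Stat3 by 1.504 (adjusted p = 0.00172). The kinase Jak1 was not called (0.41). Cntfr was not called without one or more of Vancomycin-IP replicates 1, 2 and 3 or of PBS-IP replicates 1 and 4 (limma adjusted p up to 0.0868).

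The remaining largest rises were in Rab23, a small GTPase of vesicle traffic (3.48), the Hsp70 co-chaperone Bag2 (3.28), Zswim9 (3.24), the Ras-like GTPase Diras2 (3.22) and the potassium channel Kcnd3 (3.19). With them were Plat, the tissue plasminogen activator (3.16), the matricellular gene Ccn1 (3.16) and the muscle filamin Flnc (3.15). Plat stood at 134, 93.1, 54.3 and 53.6 TPM in Vancomycin-IP replicates 1 to 4 and 5.15, 8.41, 16.9 and 4.81 TPM in PBS-IP replicates 1 to 4, without overlap (limma adjusted p = 0.00993), and was not called without the low Hox pair (3.41, limma adjusted p = 0.0515). Bag2, Zswim9, Diras2, Kcnd3, Ccn1 and Flnc were each not called without one or more of Vancomycin-IP replicates 1, 2 and 3 or of PBS-IP replicates 1, 2, 3 and 4 (limma adjusted p up to 0.139).

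Stress-induced genes rose in part. Of 15 heat shock genes 9 rose and 0 fell, with a median of 1.14. Hspa1a, an inducible Hsp70 chaperone, stood at 163, 61.7, 114 and 456 TPM in Vancomycin-IP replicates 1 to 4 and 13, 21.4, 20.3 and 19.2 TPM in PBS-IP replicates 1 to 4, without overlap (2.99, limma adjusted p = 0.00475). Its near-identical copy Hspa1b rose by 2.98, and TPM estimation can share reads between the pair, so their separate levels are uncertain. The chaperones Hsph1 and Hspb1 rose by 2.30 and 2.26, whereas the constitutive Hspa8 overlapped between groups (0.03). Of 23 immediate early genes, which respond to stimuli within minutes, 8 rose and 0 fell. Among them were the nuclear receptor Nr4a1 (2.70, adjusted p = 0.0157), Atf3 (1.83) and the phosphatase Dusp1 (1.43), with Klf6 at -0.01. On the list of acute inflammation 1 of 13 tested genes rose, below the share of all tested genes, the prostaglandin synthase Ptgs2 (2.64, adjusted p = 0.0151). Hspb1, Atf3 and Dusp1 were each not called without one or more of Vancomycin-IP replicates 1, 2, 3 and 4 or of PBS-IP replicates 1, 2, 3 and 4 (limma adjusted p up to 0.141).

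The largest falls included mucus genes of the epithelium. Of 16 goblet cell genes, which make mucus and are part of the epithelial score, 5 fell and 0 rose, with a median of -1.52. Zg16, a lectin of the mucus layer, stood at 301, 44.1, 328 and 1209.9 TPM in Vancomycin-IP replicates 1 to 4 and 4485, 6154, 1497 and 5631 TPM in PBS-IP replicates 1 to 4. The groups did not overlap, but the vancomycin libraries spread widely, and the gene fell by 3.85 (SE 1.25, limma adjusted p = 0.0286). It was not called without the low Hox pair (-3.45, limma adjusted p = 0.137). The mucus protease Clca1 fell by 3.35 and the trefoil peptide Tff3 by 3.17, both with overlapping groups. The gel-forming mucin Muc2 was not called (-1.36, adjusted p = 0.283), nor was the mucus protein Fcgbp (-2.77, adjusted p = 0.0603). Surface colonocyte genes, the rest of the epithelial score, had a median of -1.44 with 0 of 16 called. Among them were the chloride exchanger Slc26a3 (-1.13) and Lypd8, which coats bacteria (-1.66). Other falls were carbonic anhydrase Car2 (-2.87), the drug efflux pump Abcb1a (-2.76), the oxidase Hao2 (-2.94), Smim24 (-2.69) and Nxpe2 (-2.68). Naip6 (-2.68) and Slfn4 (-2.63) belong to families of close copies, so their values are uncertain. Zg16, Clca1, Tff3, Car2, Abcb1a, Hao2, Smim24, Nxpe2, Naip6 and Slfn4 were each not called without one or more of Vancomycin-IP replicates 1, 2, 3 and 4 or of PBS-IP replicates 1, 2, 3 and 4 (limma adjusted p up to 0.19).

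Some interferon and proliferation genes fell, to be read against the 3.08% of all tested genes that were lower. Of 26 type I interferon genes 5 fell and 0 rose, with a median of -0.57. Isg15, a ubiquitin-like modifier, stood at 16.3, 4.69, 3.15 and 3.77 TPM in Vancomycin-IP replicates 1 to 4 and 21.4, 16.4, 58.7 and 15 TPM in PBS-IP replicates 1 to 4, which overlap (-1.90, limma adjusted p = 0.0322). It was not called without the low Hox pair (-1.40, limma adjusted p = 0.203) or without the 12 end libraries (-0.19, limma adjusted p = 0.937). The RNA sensor Ifih1 fell by 1.44 without overlap, the transcription factor Irf9 by 0.89 and Rtp4 by 1.47. Of 23 interferon gamma genes 2 fell, the tryptophan-degrading enzyme Ido1 (-2.05) and the GTPase Irgm1 (-0.72). Of 18 proliferation genes 2 fell, Mki67 (-2.07) and the mitotic kinase Plk1 (-1.82), and the replication clamp Pcna overlapped (-0.17). Of 21 nuclear genes of oxidative phosphorylation 3 fell, among them Uqcrfs1 (-1.20) and Ndufs1 (-0.82). Isg15, Ifih1, Irf9, Rtp4, Ido1, Irgm1, Mki67, Plk1, Uqcrfs1 and Ndufs1 were each not called without one or more of Vancomycin-IP replicates 1, 2, 3 and 4 or of PBS-IP replicates 1, 2, 3 and 4 (limma adjusted p up to 0.258). B cell, T cell, plasma cell, mast cell, MHC class II, mesothelium and adipocyte lists had no called gene.

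**Figure D2:**
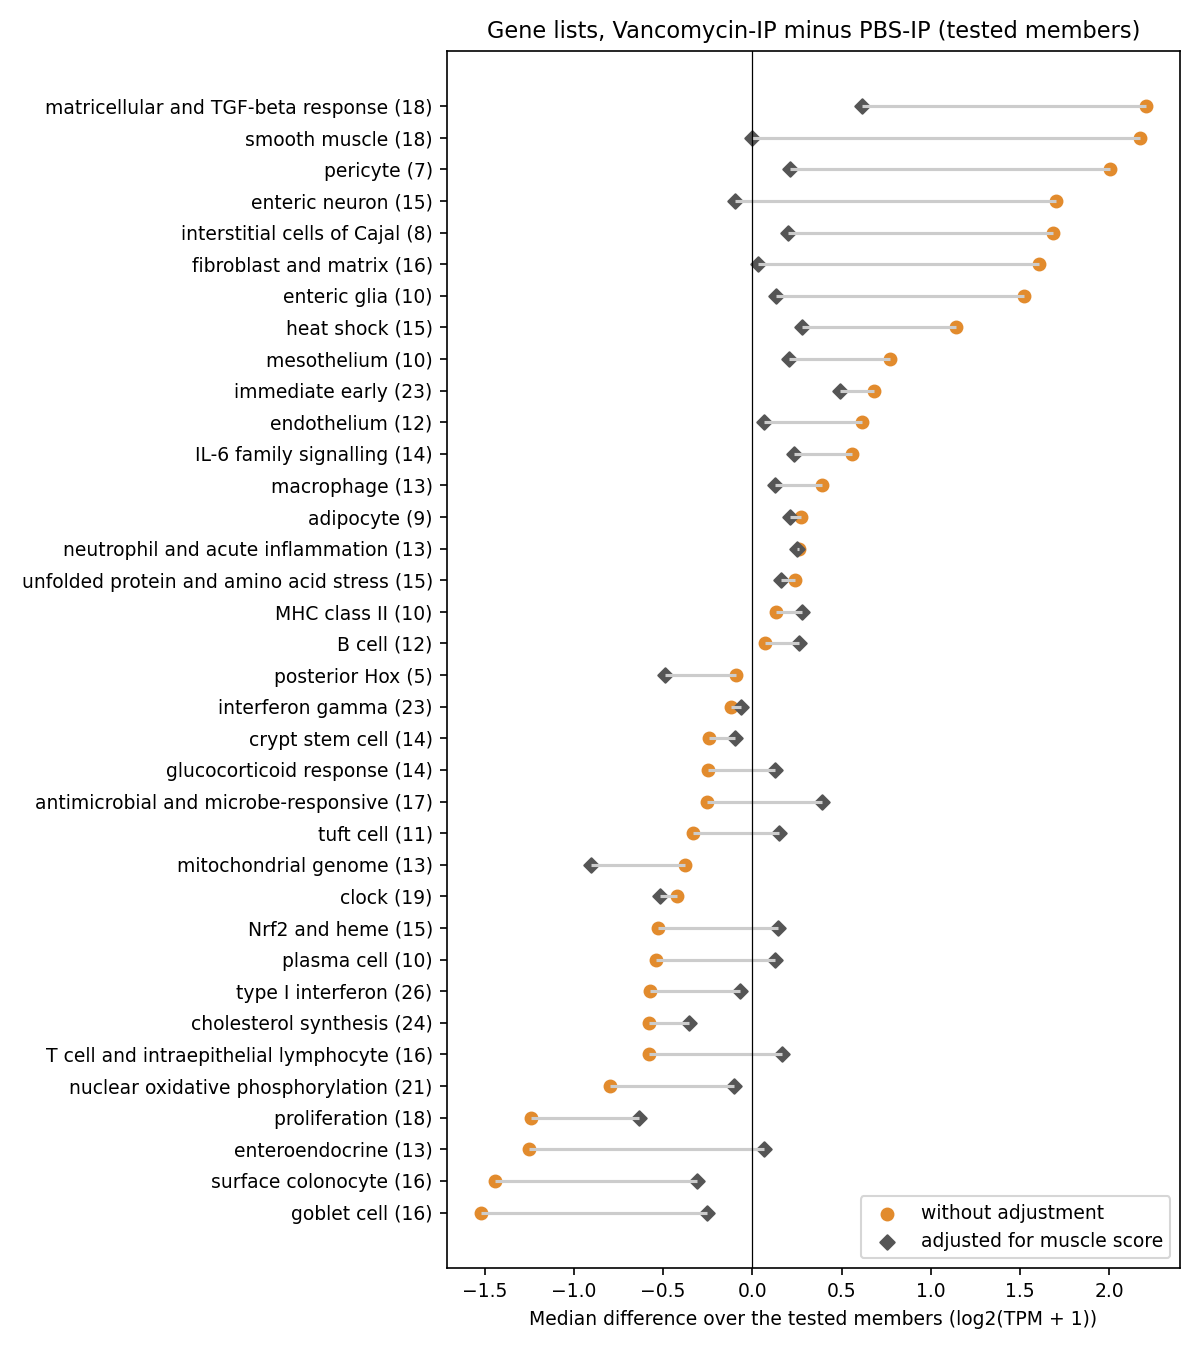
Median difference, Vancomycin-IP minus PBS-IP, in log2(TPM + 1) for the 36 gene lists with 5 or more tested genes, without adjustment (circles) and adjusted for the smooth muscle score (diamonds). The adjusted smooth muscle median is near 0 by construction, since those genes make the score. The matricellular median from 2.21 to 0.61 and the clock median from -0.42 to -0.52.

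How far these differences follow muscle content was measured in the other 89 libraries. The slope of each gene on the smooth muscle score there, times the score difference of 2.22, gave a predicted difference that uses none of the 8 compared libraries for the slope. Across the 17083 genes the predicted and observed differences were closely related (Pearson r = 0.921, Spearman rho = 0.908, slope 1.08), a description across genes, which are not independent replicates. Of the 3252 called genes, 98.8% had a predicted difference of the same sign, against 86.0% of all tested genes, and for 2531 (77.8%) the prediction was at least 50% of the observed difference. The SD over genes was 0.84 for the observed difference and 0.33 for observed minus predicted. Zg16 was predicted at -2.57 and observed at -3.85. Thbs1 was predicted at 1.86 and observed at 3.61, and Dbp was predicted at 0.54 and observed at -2.42.

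**Figure D3:**
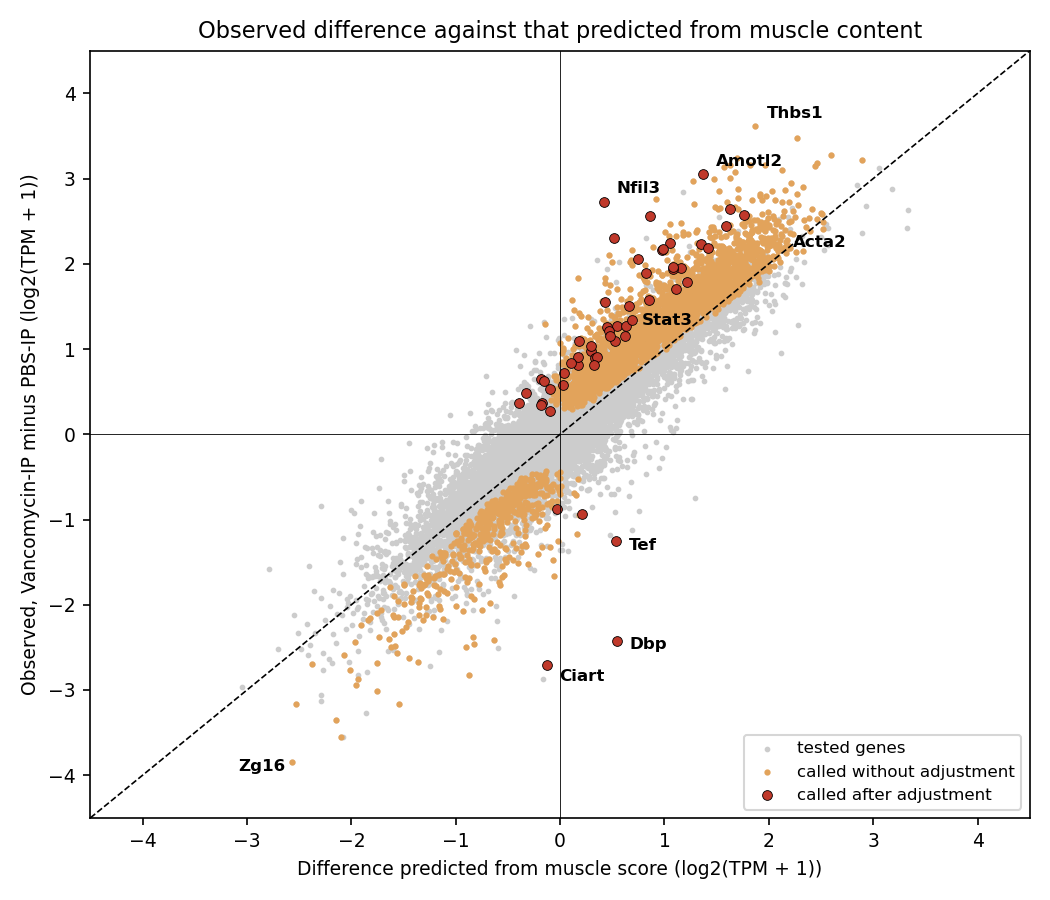
Observed difference, Vancomycin-IP minus PBS-IP, against the difference predicted from the muscle score, both in log2(TPM + 1), with one point for each of 17083 tested genes and a dashed line of equality. Most called genes lie along the line, and Nfil3 above it and Dbp, Ciart and Tef below it stand apart.

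With the smooth muscle score as a covariate, 54 genes were called, of which 49 rose and 5 fell (limma, adjusted p under 0.05). These are 0.316% of tested genes, 0.287% higher and 0.0293% lower. Of the 54, 51 were also called without adjustment, all with the same sign. With quantile normalization 20 genes were called, 9 higher and 11 lower. With the epithelial score as covariate in place of the muscle score 59 genes were called, 38 of them among the 54. All 54 had groups that did not overlap in TPM, as did 30.6% of all tested genes. The median absolute difference of the 3252 genes called without adjustment was 1.26 before and 0.35 after it. The muscle genes define the score, so their adjusted values are not read. Of the 38 gene lists, 26 had a called gene without adjustment and 2 with it, the clock and IL-6 family lists, and 48 of the 54 genes stood on no list. The count ranged from 10 to 52 with 1 library left out, and was 10, 13, 14, 15 and 24 without Vancomycin-IP replicates 1 and 3 and PBS-IP replicates 4, 1 and 2. Without the low Hox pair 48 genes were called, 32 of them among the 54, and without the 12 end libraries 2 genes were called, none of them among the 54. In a fit of the 8 libraries alone, where group and muscle score are nearly inseparable (variance of the difference inflated 11.8 times, against 1.11 times in the fit of 97), 0 genes were called and 50 of the 54 had the same sign.

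Clock genes were among the few called after adjustment. Of 19, 1 rose and 8 fell without adjustment, and 1 rose and 4 fell with it, with medians of -0.42 and -0.52 against 0.11 and 0.07 over all genes. Nfil3, a repressor at D-boxes, stood at 21.1, 9.46, 14.4 and 30.2 TPM in Vancomycin-IP replicates 1 to 4 and 1.29, 1.73, 2.86 and 1.37 TPM in PBS-IP replicates 1 to 4. It rose by 2.73 (SE 0.35, limma adjusted p = 4.58e-07) without adjustment and by 2.33 (SE 0.34, adjusted p = 2.91e-05) with it, the smallest adjusted p of either fit. Dbp, an activator at those sites, stood at 33.8, 75.3, 40.3 and 25.5 TPM against 248, 238, 149 and 266 TPM in the same order. Each vancomycin library was below each PBS library, and Dbp fell by 2.42 (SE 0.54, adjusted p = 0.00516) and, adjusted, by 2.98 (SE 0.54, adjusted p = 0.00124).

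Ciart, a repressor of Clock and Bmal1, stood at 1.88, 5.04, 2 and 1.39 TPM in Vancomycin-IP replicates 1 to 4 and 32.8, 21.9, 13.8 and 18.6 TPM in PBS-IP replicates 1 to 4. It fell by 2.70 (limma adjusted p = 0.000515) and, adjusted, by 2.59 (adjusted p = 0.00281), also without overlap. Tef, related to Dbp, fell by 1.80 with adjustment (adjusted p = 0.0471) and the nuclear receptor Nr1d2 by 1.14 (adjusted p = 0.0237). Per3, a period gene, fell by 1.48 without adjustment (adjusted p = 0.00643) and stood at -1.41 with it (adjusted p = 0.0598, not called). Clock itself and Per1 were not called (0.42 and 0.82). Nfil3, Dbp and Ciart were called in both fits with each of the 8 libraries left out and without the low Hox pair. Without the 12 end libraries Dbp and Ciart were called in neither fit and Nfil3 only without adjustment (3.14, limma adjusted p = 0.0178), and it stood at 3.14 within the main run of columns and 2.501 within the end columns. With adjustment in a fit of the 8 libraries alone none of the 3 was called. In the adjusted fit Tef and Nr1d2 were each not called without one or more of Vancomycin-IP replicates 1, 3 and 4 or of PBS-IP replicates 1, 2, 3 and 4 (limma adjusted p up to 0.194). Nr1d2 without adjustment was not called without PBS-IP replicate 1, and Tef lost its call without any one of the 8. The clock time of collection is not given in the sources used here, and its part in these differences was not tested.

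The start regions of the clock genes were searched for exact matches to DNA words through which clock proteins act. The 250 bases before the start site are given for Ciart (chr3:95882229-95882478, minus strand) and Per3 (chr4:151044666-151044915, minus strand), from RefSeq on GRCm38.p6, 5′ to 3′, with matches to the E-box CACGTG or the D-box TTATGTAA, searched on both strands, in capitals.
Ciart: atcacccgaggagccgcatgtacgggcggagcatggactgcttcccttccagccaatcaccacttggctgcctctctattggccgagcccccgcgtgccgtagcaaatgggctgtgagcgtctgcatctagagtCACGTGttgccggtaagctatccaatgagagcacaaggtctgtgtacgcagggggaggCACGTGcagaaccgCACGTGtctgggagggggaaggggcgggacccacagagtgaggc
Per3: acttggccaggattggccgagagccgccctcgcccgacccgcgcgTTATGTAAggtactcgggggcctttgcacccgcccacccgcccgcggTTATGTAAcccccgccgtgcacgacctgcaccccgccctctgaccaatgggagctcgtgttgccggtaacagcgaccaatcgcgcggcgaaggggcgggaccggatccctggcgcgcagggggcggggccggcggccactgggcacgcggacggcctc
Ciart held 3 E-boxes, which began 116, 58 and 44 bases before the start, and no D-box. Per3 held 2 D-boxes, which began 205 and 158 bases before the start, and no E-box. Each of 2 Tef start regions held 1 E-box, and the windows of Dbp, Nr1d2 and Nfil3 held neither word. Of 32851 RefSeq start regions of this length, 6.02% held the E-box and 0.819% the D-box. A match is a description of sequence and not a measured site. Other forms of these words, other kinds of site and bases outside the window were not searched. A window without a match is therefore not shown to lack sites for clock proteins.

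**Figure D4:**
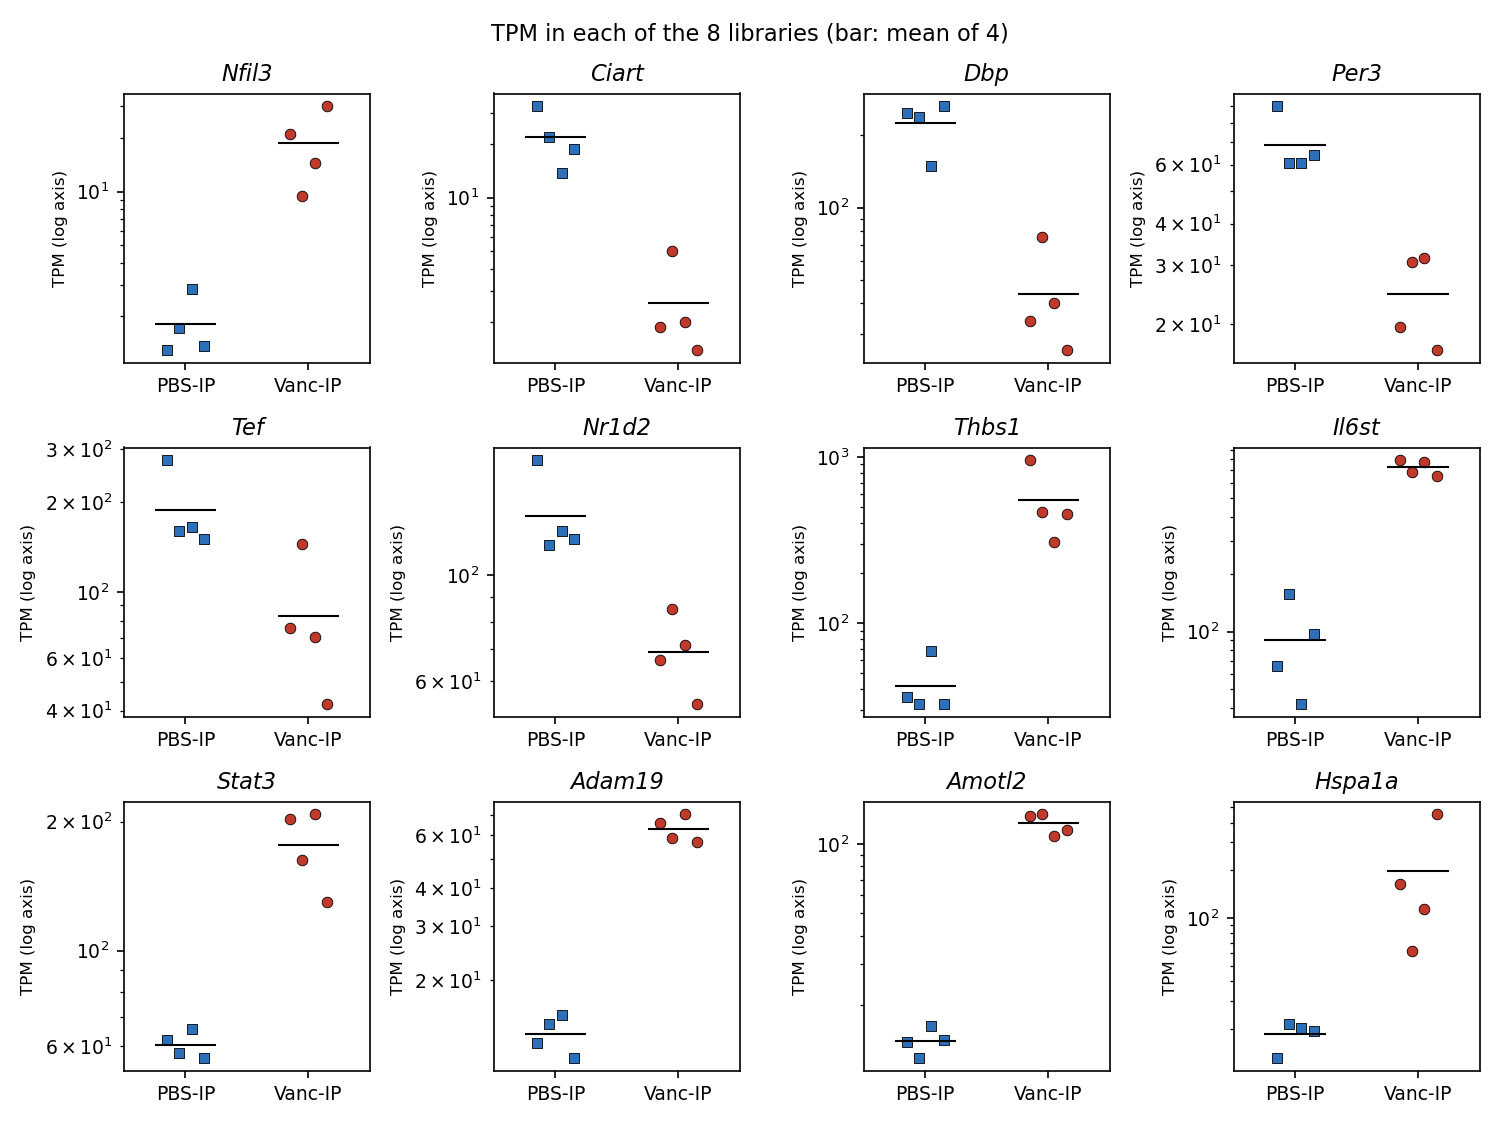
TPM of 12 genes in each of the 8 libraries, on log axes, with PBS-IP as squares and Vancomycin-IP as circles, replicates 1 to 4 from left to right, and a bar at the mean of 4. The groups do not overlap for any of the 12, which were picked from called genes, nor for 30.6% of all tested genes. The clock genes Ciart, Dbp, Per3, Tef and Nr1d2 are lower and the others higher after vancomycin.

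Most other adjusted calls stood on no gene list, and those that the naming rule picked are given gene by gene. Of the 54 adjusted calls 17 were named, and the rest are not printed. Some of the genes not printed had a larger rise or a smaller adjusted p than most of those printed. Adam19, a membrane metalloprotease, stood at 65.5, 58.5, 70.4 and 57 TPM in Vancomycin-IP replicates 1 to 4 and 12.4, 14.3, 15.4 and 11 TPM in PBS-IP replicates 1 to 4. Its libraries were tight in both groups, and it rose by 2.17 and, adjusted, by 1.20 (SE 0.20, limma adjusted p = 0.000667), with its call kept for each library left out but lost without the 12 end libraries (1.16, limma adjusted p = 0.435). Amotl2, a scaffold that binds Yap1, stood at 132, 135, 108 and 115 TPM against 13.8, 11.7, 16.2 and 14 TPM in the same order. It rose by 1.70 with adjustment (SE 0.37, adjusted p = 0.019).

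Stat3, the transcription factor downstream of Il6st, stood at 203, 162, 209 and 129.7 TPM in Vancomycin-IP replicates 1 to 4 and 62, 57.7, 65.9 and 56.1 TPM in PBS-IP replicates 1 to 4. It rose by 0.85 with adjustment (SE 0.20, limma adjusted p = 0.0316), whereas Il6st itself was at 1.33 with adjusted p = 0.366. Rela, a subunit of NF-kappa B, stood at 80.2, 98.1, 116 and 102 TPM against 33.3, 30.1, 32.2 and 35.7 TPM in the same order and rose by 1.13 (adjusted p = 0.0454). Other adjusted rises were Cds2, an enzyme of phospholipid synthesis (1.30), the phosphatases Dusp8 (1.20) and Dusp3 (1.02), and Zfp36l1, which promotes mRNA decay (1.18). With them were the ubiquitin-conjugating enzyme Ube2g2 (1.07), the adaptor Gab1 (0.91) and Filip1l (0.89). The fifth adjusted fall was Coq10b, a coenzyme Q binding protein (-0.84, adjusted p = 0.0243). In the adjusted fit Amotl2, Stat3, Rela, Cds2, Dusp8, Dusp3, Zfp36l1, Ube2g2, Gab1, Filip1l and Coq10b were each not called without one or more of Vancomycin-IP replicates 1, 2, 3 and 4 or of PBS-IP replicates 1, 2, 3 and 4 (limma adjusted p up to 0.209). Rela lost its adjusted call without any 1 of the 8 libraries. With quantile normalization Stat3, Rela, Cds2, Dusp8, Dusp3, Zfp36l1, Ube2g2 and Filip1l were not called in that fit. Without the low Hox pair 14 of the 17 named genes called with adjustment kept the call. Rela (1.17, limma adjusted p = 0.0967), Gab1 (0.80, adjusted p = 0.105) and Ube2g2 (1.12, adjusted p = 0.0666) lost it. All of the adjusted rises given here had predicted differences that were positive and smaller than the unadjusted ones. After adjustment Thbs1 stood at 1.78 (limma adjusted p = 0.0628), Hspa1a at 1.55 (adjusted p = 0.143) and Ptgs2 at 1.06 (adjusted p = 0.571), none of them called.

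Whether the differences belong to the IP route was tested against vancomycin given IV (5 libraries, with 5 of PBS-IV) and PO (6, with 6 of PBS-PO). Neither interaction called a gene by limma, with or without adjustment, which is 0% of tested genes. At an unadjusted p under 0.05 there were 1258 genes for IP against IV and 2251 for IP against PO without adjustment, and 1072 and 593 with it. With array weights 189 and 4352 genes were called without adjustment and 255 and 3 with it. Against PBS of the same route 44 genes were called IV (0.258% of tested genes) and 30 PO (0.176%) without adjustment, and 62 (0.363%) and 46 (0.269%) with it. The smooth muscle median was 0.93 for IV and 0.44 for PO, with 0 of 18 genes called by either route.

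Ciart and Dbp also fell after vancomycin by the other routes. Ciart fell by 1.85 IV (limma adjusted p = 0.0263) and by 2.64 PO (adjusted p = 1.68e-05) in the adjusted fit. Dbp fell by 1.85 IV (adjusted p = 0.0455) and by 2.55 PO (adjusted p = 0.000309). Nfil3 rose by 1.53 PO (adjusted p = 0.000729) and stood at 0.57 IV, not called (adjusted p = 0.388). Its differences between routes were 1.76 (SE 0.44) for IP against IV and 0.80 (SE 0.43) for IP against PO, neither called. Adam19 stood at 0.20 IV and 0.54 PO, and Stat3 at 0.17 and 0.16, none called. The PBS groups of the 3 routes share no library.

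Vancomycin was also set against the other single antibiotics given IP, the mean of ampicillin (6 libraries), metronidazole (4) and neomycin (6), which uses no PBS library. Without adjustment 458 genes were called, 370 higher and 88 lower, which is 2.68%, 2.17% and 0.515% of tested genes. The count rested on single libraries, with 22, 8, 3 and 1280 genes without Vancomycin-IP replicates 1, 2, 3 and 4. Among them were 7 of 18 matricellular genes, 4 of 15 heat shock genes, 3 of 14 IL-6 family genes and 3 of 23 immediate early genes, all higher, and 0 of 18 smooth muscle genes (median 1.57). Thbs1 stood 2.59 above the other antibiotics (limma adjusted p = 0.0259), Il6st 2.65 (adjusted p = 0.0267), Amotl2 2.21 (adjusted p = 0.012) and the transcription cofactor Lbh 1.49 (adjusted p = 0.012). The lipid transport protein Vps13d was lower (-0.92, adjusted p = 0.012). Of 26 type I interferon genes 5 were lower. Isg15 stood at 199.8 ± 90.2 TPM (SD, n = 6) in Neomycin-IP, 6.69 ± 3.26 in Ampicillin-IP (n = 6) and 17.5 ± 9.66 in Metronidazole-IP (n = 4), so the high side of that difference lay in the neomycin libraries.

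Adjusted for muscle, 3 genes differed from the other IP antibiotics (0.0176% of tested genes), 2 higher (0.0117%) and 1 lower (0.00585%). Nfil3 was higher by 1.30 (SE 0.27, limma adjusted p = 0.0375), against 7.03 ± 1.55 TPM in Ampicillin-IP, 4.23 ± 0.989 in Metronidazole-IP and 4.95 ± 2.43 in Neomycin-IP (SD). Camk2g, a calcium-dependent kinase, was higher by 0.70 (adjusted p = 0.0109). Mcm3ap, a protein of mRNA export, was lower (-0.996, adjusted p = 0.00125), with 35.5, 24.4, 25.7 and 25.8 TPM in Vancomycin-IP replicates 1 to 4. The count was 8 without Vancomycin-IP replicate 2 (7 higher and 1 lower) and 2 without replicate 1 (1 higher and 1 lower). Without replicate 3 it was 1 (0 higher and 1 lower), so the calls of Nfil3 and Camk2g as higher rested on that library. Dbp (-1.16, adjusted p = 0.565) and Ciart (-1.02, adjusted p = 0.62) were not called. Ciart stood at 4.04 ± 1.18 TPM in Ampicillin-IP, 9.72 ± 5.62 in Metronidazole-IP and 7.32 ± 2.55 in Neomycin-IP (SD).

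**Figure D5:**
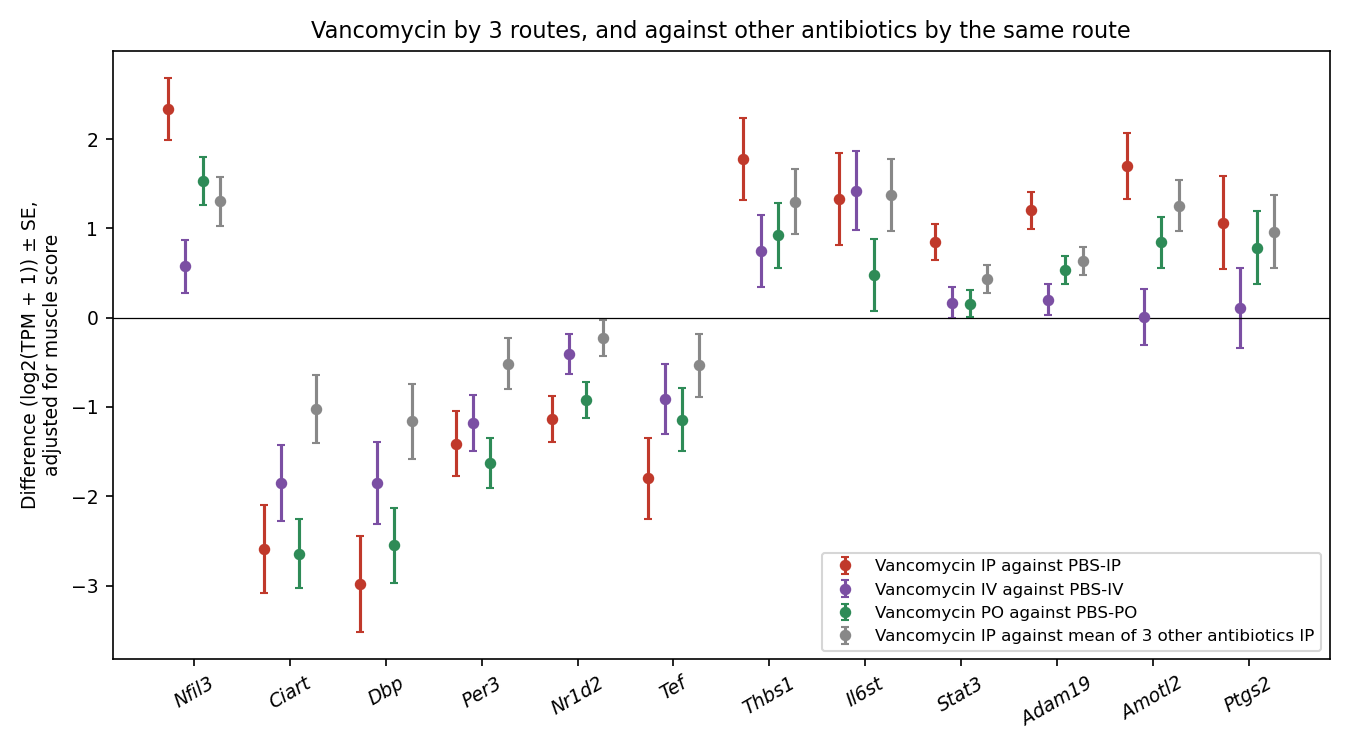
Difference in log2(TPM + 1), adjusted for the muscle score, with its SE, of 12 genes after vancomycin IP, IV and PO against the PBS group of each route, and of vancomycin IP against the mean of 3 other antibiotics given IP. Ciart, Dbp and Per3 lie below 0 by all 3 routes, and no gene was called for a difference between routes in these fits.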

How the data were processed

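The deposited values were TPM, in a table of 97 libraries that the authors made. Per the labels' protocols, 1000 ng of RNA was selected for poly(A) and sequenced single-end for 75 cycles. Per the submitters' processing notes, Trim Galore 0.6.2, cutadapt 3.5, Salmon (version not given) and GRCm39 were used. Strand is not stated, so overlapping genes on opposite strands may share signal. TPM keep no depth, and the number of libraries limits precision.

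TPM were used as log2(TPM + 1), which understates changes of low genes. A gene was tested if 4 or more libraries had a TPM of 1 or more. One model of 18 groups was fitted with limma 3.58.1 (trend, robust) in R 4.3.3, p-values were adjusted by Benjamini-Hochberg within each comparison, and genes were called at an adjusted p under 0.05. The adjusted fit added the smooth muscle score as a covariate. Scores were compared by exact permutation (SciPy 1.17.1). The fits were tried on simulated data with noise drawn for each gene alone, and with a muscle gradient added only for the adjusted fit. Of 100 genes changed 2-fold, 40% were recovered without adjustment and 42% with it. For 100 genes changed 4-fold these were 87% and 84%. Real genes move together with muscle content, so these shares may not hold for the real libraries.

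Named genes were up to 10 rises and 10 falls of each fit above the median level of tested genes, up to 4 called and 2 uncalled members of each list, and up to 4 genes of other contrasts, without gene models that lack a name, antigen receptor segments or pseudogenes. Genes of a list not tested, or not in the table, are not analysed here. Values of some genes that the rule named are not reported here. The libraries, genes and lists were chosen with earlier results of these data known. Each library was left out in turn, and array weights, quantile normalization, a replicate block, other covariates, no filter, a pseudocount of 10 and a fit of the 8 libraries alone were tried. Those on the end columns and the low Hox libraries were chosen after seeing the data.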

Additional observations from a re-analysis of the deposited data

Results flagged for a closer look

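In 234 groups of 4 libraries (113 genes of the naming rule, nearly all printed above, and 4 scores, in Vancomycin-IP and in PBS-IP), 14 (5.98%) had 1 library far from the other 3 relative to the group's range. Chance flags about 1 in 20 groups of independent, normally distributed values. The groups here share the same libraries and are not independent, so the share is a description only. Of the 14, 6 were PBS-IP replicate 3 and 4 were PBS-IP replicate 1.

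PBS-IP replicate 3 was the highest of its group for Thbs1 (67.5 TPM), Zswim9 (18.4 TPM) and the pericyte gene Rgs5 (454 TPM). It was the lowest for Tff3 (399 TPM), Jak1 (62.6 TPM) and the posterior Hox score (1.36). PBS-IP replicate 1 was the highest for the clock genes Tef (277 TPM), Nr1d2 (174 TPM) and Per3 (90.0 TPM) and the lowest for Cds2 (54.0 TPM). In Vancomycin-IP, replicate 2 was the highest for Per1 (66.7 TPM) and the lowest for Plk1 (5.4 TPM), replicate 4 was the lowest for Cntfr (6.1 TPM) and replicate 1 was the highest for Mcm3ap (35.5 TPM).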

How the results depend on the processing

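The 103 called differences of named genes kept their sign under every alternative tried. Of their values, 1258 kept the call and 561 lost it. Of 32 differences of named genes that were not called, 19 were called under at least 1 alternative (51 values) and 9, all without adjustment, changed sign in 34 values, none of them called. On the log2(TPM + 1) scale, Ano1 (0.42) stood at -0.11 to 0.701 with a library left out and -0.23 without the low Hox pair. Cd79a (-0.057) stood at -1.19 to 0.86 with a library left out, 0.23 with a pseudocount of 10, 0.087 with array weights, 0.67 without the end columns and 0.96 without the low Hox pair. Hspa8 (0.026) stood at -0.22 to 0.16 with a library left out, -0.22 with array weights, -0.099 without the end columns and -0.089 without the low Hox pair. Klf6 (-0.013) stood at -0.13 to 0.13 with a library left out, 0.029 with quantile normalization, 0.11 with array weights, 0.29 without the end columns and 0.070 without the low Hox pair. Muc2 (-1.36) stood at 0.18 without the end columns. Pcna (-0.17) stood at -0.34 to 0.11 with a library left out, 0.089 without the end columns and 0.076 without the low Hox pair. Pigr (-0.25) stood at -0.51 to 0.14 with a library left out. Skil (0.071) stood at -0.14 to 0.1998 with a library left out, -0.091 with quantile normalization, -0.013 with array weights, -0.034 without the end columns and -0.042 without the low Hox pair. mt-Co1 (-0.33) stood at -0.59 to 0.16 with a library left out. Of 86 named genes called without adjustment 30 kept the call with each library left out, and 1, Nfil3, under every alternative. Of 17 named genes called with adjustment 4 did so with each library left out (Nfil3, Adam19, Dbp and Ciart), and 0 under every alternative.

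Without adjustment (3252 genes) array weights gave 9897, the 8 libraries alone 5266, a term for the 12 end columns 5136, leaving those out 5, leaving out the low Hox pair 124, and each library left out 555 to 4576. With adjustment (54) array weights gave 1047, the 8 libraries alone 0, a linear and squared muscle score 27, added Hox scores 112, quantile normalization 20, leaving out the end columns 2, and each library left out 10 to 52. IP against IV gave 189 and, adjusted, 255 genes with array weights, and IP against PO 4352 and 3, with 0 to 2 when a library was left out without adjustment. Against the other IP antibiotics (458) array weights gave 9793, a pseudocount of 10 1625, no filter 269, quantile normalization 780 and each library left out 3 to 1280. Adjusted (3) these were 173 with array weights, 27 with a pseudocount of 10, 8 with quantile normalization and 1 to 8 with a library left out. The smooth muscle score difference was 2.08 to 2.35 with a library left out, where an exact permutation test of 3 against 4 cannot go below p = 0.0571. The causes were not tested.

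Replicate numbers were checked as pairs. Deviations of same-numbered libraries correlated at -0.062, -0.257, -0.050 and 0.294, within the -0.499 to 0.407 of the other pairs. These values cannot tell whether equal numbers share a batch, and the numbers were treated as names. With a replicate block 3302 genes were called without adjustment and 53 with it. Depth cannot be weighed, since TPM do not keep it.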

Other observations

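Lists of 3 further epithelial lineages had 2 genes higher each, close to the 16% of all tested genes. They had at most 2 lower, where 3.08% of all tested genes were lower. The counts are small, and they are given as values and read no further. Of 14 crypt stem cell genes 2 rose and 1 fell without adjustment. The fall was Rnf43, a ubiquitin ligase that removes Wnt receptors, at 5.14, 2.09, 14.6 and 9.97 TPM in Vancomycin-IP replicates 1 to 4 and 38.3, 32.3, 34.8 and 24.1 TPM in PBS-IP replicates 1 to 4 (-2.13, limma adjusted p = 0.0459). The rises were the Wnt inhibitors Nkd1 (1.84, adjusted p = 0.024) and Notum (1.70, adjusted p = 0.0105), and both were predicted from muscle content to rise, by 1.60 and 1.07. Of 13 tested enteroendocrine genes 2 rose and 2 fell, among them the secretogranin Scg2, which rose by 1.98, and the transcription factor Neurod1, which fell by 1.58. Chga, a granule protein of these cells, was not called (-1.58). Of 11 tested tuft cell genes 2 rose, one of them the kinase Dclk1 (1.90). Rnf43, Nkd1, Notum, Scg2, Neurod1 and Dclk1 were each not called without one or more of Vancomycin-IP replicates 1, 2 and 3 or of PBS-IP replicates 1, 2, 3 and 4 (limma adjusted p up to 0.183). None of these genes was called after adjustment.

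Immune cell genes varied between libraries of one group. Cd79a, a B cell receptor chain, stood at 7.44, 0.431, 101 and 5.78 TPM in Vancomycin-IP replicates 1 to 4, and Jchain, the joining chain of secreted antibodies, at 135, 13.1, 131 and 815 TPM. In PBS-IP replicates 1 to 4 they stood at 2.8, 6.42, 11.3 and 27 TPM and 347, 1151, 271 and 528 TPM, so the groups overlapped for both. Of 13 tested macrophage genes 1 rose, the surface receptor Adgre1 (0.99, limma adjusted p = 0.0447), with overlapping groups.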
